A study of Homo sapiens with 4 samples.

Results

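The core circadian clock genes described here are BHLHE40, BHLHE41, PER1, PER2, PER3, CRY1, CRY2, NR1D1, NR1D2 and DBP, which are the feedback repressors of the clock and 1 of its output factors. All probe sets that the platform annotation assigns to these 10 genes were taken, which gave 25 of the 54613 probe sets on the array. For 8 of the genes, 18 probe sets carry that gene alone. The other 7 probe sets name a second gene as well: 4 list PER1 with the microRNA gene MIR6883, which lies inside PER1, and 3 list NR1D1 with THRA, a gene on the opposite strand whose end overlaps that of NR1D1. These 7 are given as values of the shared probe sets, not of 1 gene.

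Both groups were SH-SY5Y cells, a human neuroblastoma line, collected 72 h after the start of RNA interference. The knockdown group (2 arrays) was treated with a self-delivering (Accell) small interfering RNA system against TSPAN8, and the transfection control group (2 arrays) was kept under control conditions, and the sources used here do not give what RNA, if any, those cells received. Whether replicates were separate cultures is not stated in the labels, so p-values reflect only the variation among these arrays, possibly technical. All samples share 1 collection time, so levels could be compared between groups while the phase and amplitude of a rhythm could not be measured. TSPAN8 itself read 6.25 and 6.35 in knockdown against 7.52 and 7.62 in control cells on the log2 scale (limma, adjusted p = 0.0026), and it was the 1 probe set of 54613 (0.00183%) past an adjusted p of 0.05. Among 9 measured sympathetic neuroblast markers, 8 lay above the array median, with TH below it. The list's mean log2 value was 10.78 and 10.83 in knockdown and 10.90 and 10.91 in control cells.

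The clock of most cells is a transcriptional feedback loop. CLOCK or NPAS2 pairs with BMAL1 and binds E-box sequences, which switches on the PER and CRY genes, whose proteins return to the nucleus and inhibit that same pair. The BHLHE40 and BHLHE41 proteins compete for the same E-boxes, the NR1D1 and NR1D2 receptors repress BMAL1 against the activating ROR receptors, and DBP and its relatives act on D-box sequences that NFIL3 also binds. Cultured lines such as neuroblastoma cells hold this machinery, but individual cells drift out of step unless serum or a hormone resets them. Microarray values come from the whole culture, in which fewer cells of a type and less RNA per cell cannot be told apart.

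Matches to the sequence motifs of the loop are shown as a feature that the choice of probe sets did not use directly. These motifs belong to the loop as described above, so their share here is not independent of choosing clock genes. The 250 bases before each annotated RefSeq start (GRCh38.p14) were searched on both strands for the E-box CACGTG, for the E-box variant CACGTT, which reads as AACGTG on the other strand, and for the D-box TTATGTAA (TTACATAA on the other strand). The variant differs from the E-box in its last letter, so no stretch matches both. Of 13 windows for the 10 genes, 4 held an E-box, against 6.34% of all 35116 windows. The E-box variant was in 4 of the 13, against 4.55% of all windows, and the D-box in 2 of the 13, against 0.834%. Base composition was not matched between these windows and the rest, and a match is a description of letters, not a shown binding site. BHLHE40, BHLHE41, PER1 and NR1D2 carried the E-box, PER2, CRY1, CRY2 and NR1D1 carried the variant, PER3 and NR1D2 carried the D-box, and the window of DBP held none of these letters. The matches are given below with the motif in capitals and flanking bases in lower case, each read 5′ to 3′ on the strand of the gene.
BHLHE40 E-box, chr3:4979187-4979209, plus strand: tccaaCACGTGagactcatgtga
BHLHE41 E-box, chr12:26125068-26125097, minus strand: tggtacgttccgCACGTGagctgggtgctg
PER1 E-box, chr17:8152560-8152589, minus strand: agcacccaggtcCACGTGcgcccgtgtgtg
NR1D2 E-box farther from the start, chr3:23945954-23945983, plus strand: ggcgggcggggaCACGTGaggccgctcggc
NR1D2 E-box nearer to the start, chr3:23946004-23946033, plus strand: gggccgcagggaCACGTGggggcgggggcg
PER2 variant, chr2:238288790-238288819, minus strand: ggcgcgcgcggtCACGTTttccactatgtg
CRY1 variant, chr12:107093621-107093650, minus strand: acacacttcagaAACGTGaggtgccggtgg
CRY2 variant, chr11:45847275-45847304, plus strand: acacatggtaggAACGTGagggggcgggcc
NR1D1 variant, chr17:40100740-40100769, minus strand: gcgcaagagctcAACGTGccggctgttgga
PER3 D-box, chr1:7784103-7784132, plus strand: gagcccgcgcgTTATGTAAcgcgccccggg
NR1D2 D-box, chr3:23945916-23945945, plus strand: gtgacgcggcaTTACATAAtgggcgctgag

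BHLHE40 and BHLHE41, a paralogue pair whose brightest probe sets both stood above control in the results that follow, are shown with their whole 250-base window. In both, the single E-box is in capitals, and it begins 245 bases before the start of BHLHE40 and 48 bases before that of BHLHE41.
BHLHE40, chr3:4979187-4979436, plus strand: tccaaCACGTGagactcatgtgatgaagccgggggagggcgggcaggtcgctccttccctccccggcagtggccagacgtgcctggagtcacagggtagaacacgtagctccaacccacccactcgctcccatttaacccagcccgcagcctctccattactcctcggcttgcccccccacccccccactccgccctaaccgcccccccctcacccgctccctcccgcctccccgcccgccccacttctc
BHLHE41, chr12:26125038-26125287, minus strand: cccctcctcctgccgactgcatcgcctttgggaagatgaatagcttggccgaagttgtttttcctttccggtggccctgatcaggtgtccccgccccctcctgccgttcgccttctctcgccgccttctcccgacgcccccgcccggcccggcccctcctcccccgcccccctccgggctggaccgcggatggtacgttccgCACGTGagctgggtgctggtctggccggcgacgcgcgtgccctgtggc

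No clock probe set passed the threshold in the TSPAN8 knockdown. With 2 arrays per group this does not show that the genes were unchanged. Of the 25, 0 passed an adjusted p of 0.05 (limma, Benjamini-Hochberg over 54613 probe sets), and the smallest adjusted p was 0.59. At an unadjusted p under 0.05, 5 were higher in knockdown cells and 0 lower, where 7.83% of all probe sets came under that value, 3.72% higher and 4.12% lower. The 5 came from 3 genes, BHLHE40 (1 probe set), BHLHE41 (3) and PER3 (1). That count was 3 without knockdown replicate 1 and 2 without control replicate 1. Both knockdown arrays lay above both control arrays for 9 of the 25 (17.7% of all probe sets) and below them for 6 (19.8%), and the groups overlapped for 10. The median difference over the 25 was 0.026 on the log2 scale, beside 0.00 over all probe sets, and the median absolute difference was 0.081, beside 0.047. The group difference exceeded the difference between replicates in both groups for 8 of the 25, while 25.6% of all probe sets did so.

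**Figure D1:**
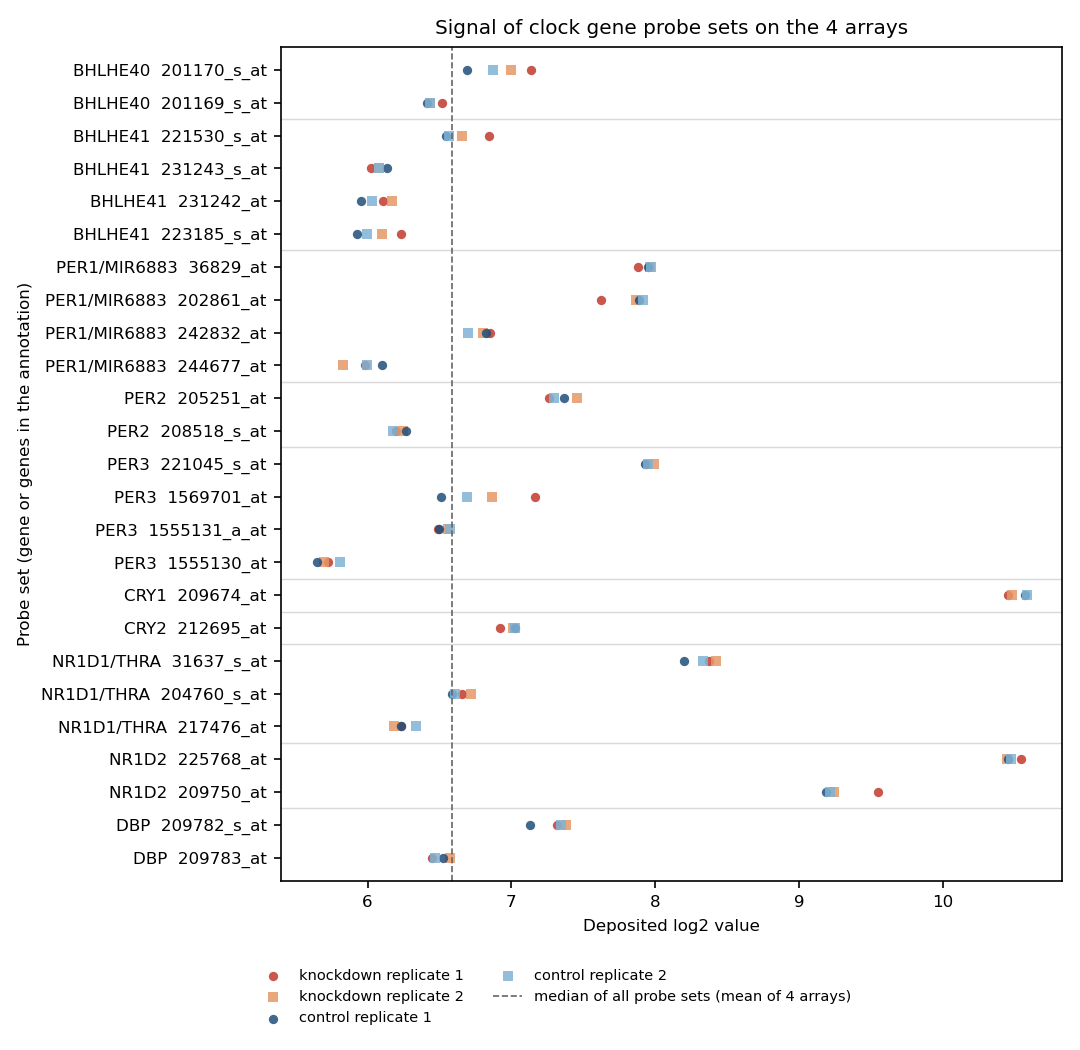
Deposited log2 value of each of the 25 clock probe sets (rows) on the 2 knockdown arrays (reds) and the 2 control arrays (blues), with the median of all probe sets dashed. CRY1 and 1 NR1D2 probe set lie above 10, and 10 of the 25 probe sets have a mean below the array median, among them 3 of the 4 of BHLHE41.

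Signal differed widely between probe sets, and since brightness depends on the probes it does not rank the genes by abundance. In control cells the mean log2 value was 10.58 for CRY1 and 10.46 for the brighter probe set of NR1D2, at percentiles 94.9 and 94.4 of all probe sets. At the other end, 1 probe set of PER3 averaged 5.73 in control cells, at percentile 6.92. For 10 of the 25 the mean over the 4 arrays lay below the array median, which was between 6.58 and 6.61. Differences there are compressed by background, and 2 of the 5 probe sets at an unadjusted p under 0.05 are among them. The rest of the 5 were not bright either. Their control means were at percentiles 49.0 (BHLHE41 221530_s_at), 50.4 (PER3 1569701_at) and 56.2 (BHLHE40 201170_s_at) of all probe sets.

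BHLHE40, a basic helix-loop-helix repressor that is itself induced by CLOCK and BMAL1, by hypoxia and by serum, had 2 probe sets, both above control. At 201170_s_at the log2 value was 7.14 and 6.998 in knockdown replicates 1 and 2, and it was 6.69 and 6.87 in control replicates 1 and 2. Every knockdown array was thus above every control array, while control replicate 2 lay closer to knockdown replicate 2 than to control replicate 1. The difference was 0.29 ± 0.076 (SE; n = 2 per group; 95% confidence interval 0.11 to 0.46), a linear ratio of 1.22, with an adjusted p of 0.60 (limma). At the dimmer 201169_s_at the values were 6.52 and 6.44 against 6.41 and 6.43, a difference of 0.055 ± 0.055 (SE). That separation was carried by knockdown replicate 1, since knockdown replicate 2 exceeded control replicate 2 by 0.0054.

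The paralogue BHLHE41, a repressor of the same E-box class, was above control at 3 of its 4 probe sets. The brightest, 221530_s_at, read 6.85 and 6.66 in knockdown and 6.55 and 6.56 in control cells, a difference of 0.20 ± 0.069 (SE; limma, adjusted p = 0.61). Probe set 223185_s_at read 6.23 and 6.10 against 5.93 and 5.997, a difference of 0.21 ± 0.064 (SE; limma, adjusted p = 0.60). For both, knockdown replicate 1 was the higher array and the groups did not overlap. At 231242_at the order within the knockdown group was the opposite, with 6.11 and 6.17 against 5.95 and 6.03 in control cells, a difference of 0.15 ± 0.056 (SE; limma, adjusted p = 0.62). The remaining probe set, 231243_s_at, read 6.02 and 6.08 against 6.14 and 6.08, a difference of -0.058 ± 0.054 (SE), so 1 of the 4 went the other way. Of 1393 genes with 4 single-gene probe sets, 7 had at least 3 higher at an unadjusted p under 0.05, BHLHE41 among them, and 9 had at least 3 lower. This count was chosen after the values of BHLHE41 had been seen, and probe sets of 1 gene share their target RNA and are not independent.

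**Figure D2:**
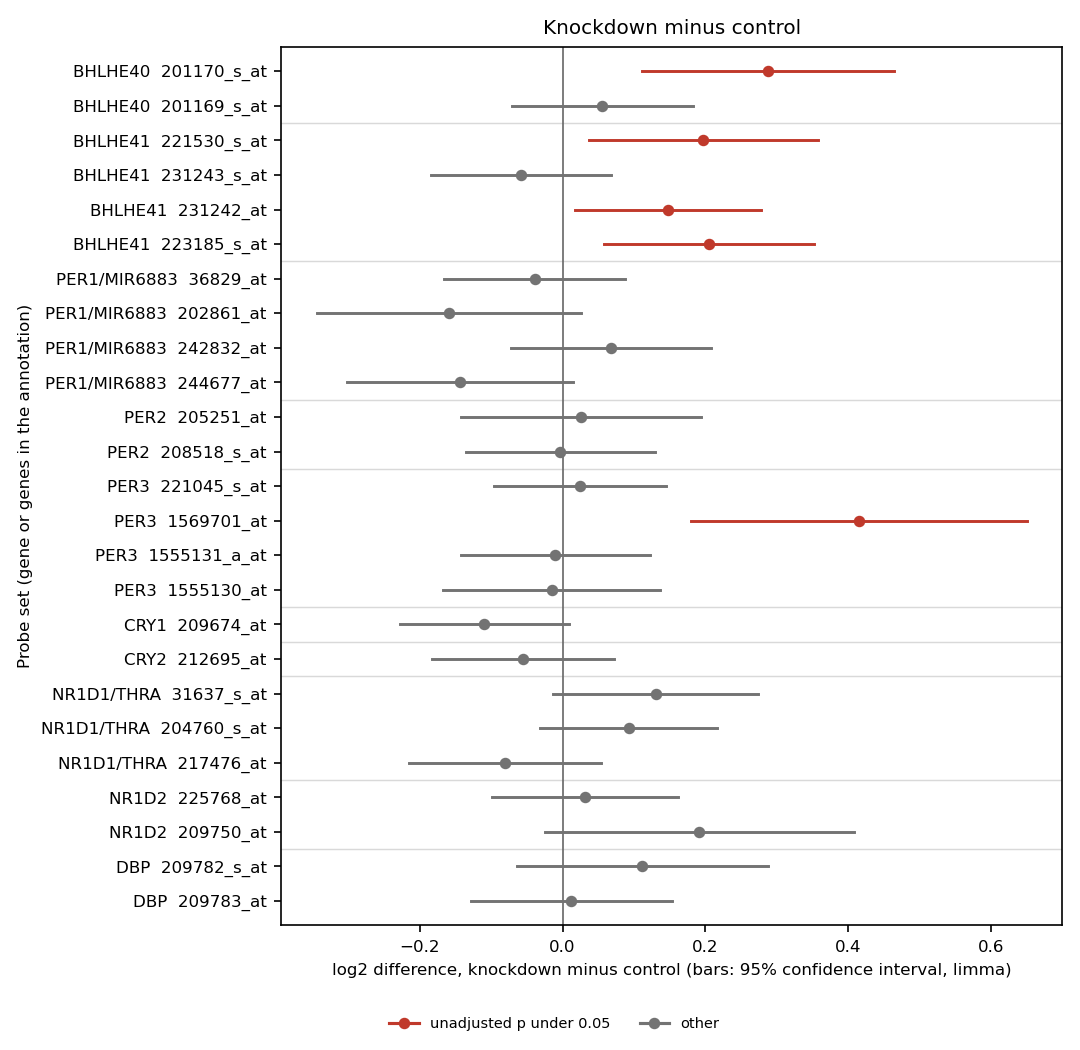
Knockdown minus control on the log2 scale (points) with limma's 95% confidence interval (bars) for the 25 clock probe sets, red where the unadjusted p is under 0.05. The 5 red intervals belong to BHLHE40, BHLHE41 and PER3 and lie above 0, while none of the 25 passes after adjustment.

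The PERIOD genes encode the inhibitors that enter the nucleus with the cryptochromes, and their probe sets did not share a direction. PER3 gave the largest difference of all clock probe sets and also the largest disagreement. At 1569701_at the log2 value was 7.16 and 6.86 in knockdown replicates 1 and 2, against 6.51 and 6.69 in control cells, so the groups were apart and knockdown replicate 1 stood highest. The difference was 0.41 ± 0.10 (SE; 95% confidence interval 0.18 to 0.65), a linear ratio of 1.33, with an adjusted p of 0.59 (limma). Over the whole array 31 probe sets had a difference at least that far above 0. The brightest PER3 probe set, 221045_s_at, read 7.94 and 7.99 in knockdown and 7.93 and 7.95 in control cells, a difference of 0.024 ± 0.052 (SE). The 2 others, 1555131_a_at and 1555130_at, differed by -0.010 and -0.015, and their groups overlapped. The span between the highest and lowest PER3 probe set was 0.43, and 4 of the 1393 genes with 4 single-gene probe sets (0.287%), PER3 included, spanned that much, beside a median of 0.14. The cutoff of this count was the span of PER3 itself, taken after its values had been seen, so the share only describes a picked gene. Which PER3 transcripts each probe set detects was not used here.

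PER2, whose product is the rate-setting partner of the cryptochromes, showed no difference beyond the spread. Its brighter probe set, 205251_at, read 7.26 and 7.46 in knockdown and 7.37 and 7.30 in control cells, so the groups overlapped. The difference of 0.026 ± 0.073 (SE) had a 95% interval from -0.14 to 0.19. At 208518_s_at the difference was -0.0032 ± 0.057 (SE).

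The 4 probe sets shared by PER1 and MIR6883 were mostly below control, and PER1 is the period gene that serum, cyclic AMP and glucocorticoids induce directly. At 202861_at it read 7.62 and 7.86 against 7.89 and 7.92 in control cells, a difference of -0.16 ± 0.080 (SE; limma, adjusted p = 0.67). Knockdown replicate 1 alone stood well below the other 3 arrays. Dim probe set 244677_at read 5.98 and 5.83 against 6.10 and 5.997, a difference of -0.14 ± 0.069 (SE; limma, adjusted p = 0.65), and here knockdown replicate 2 was the lowest. The brightest, 36829_at, read 7.88 and 7.96 against 7.95 and 7.97, a difference of -0.039 ± 0.055 (SE) with overlapping groups. Probe set 242832_at was above control, at 0.068 ± 0.060 (SE), also with overlap.

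Cryptochromes, the strongest inhibitors of the CLOCK and BMAL1 pair, were below control at the 1 probe set each has. CRY1 read 10.45 and 10.48 in knockdown cells and 10.57 and 10.58 in control cells. Replicates agreed more closely for CRY1 than the groups did, with within-group differences of -0.029 and -0.013 beside a group difference of -0.11 ± 0.051 (SE; 95% confidence interval -0.23 to 0.0086; limma, adjusted p = 0.65). The standard error exceeds the replicate spread because limma draws each variance towards that of all probe sets. With 1 array left out, the CRY1 difference ran from -0.12 to -0.095. CRY2 read 6.92 and 7.01 against 7.03 and 7.02, a difference of -0.056 ± 0.055 (SE), which was -0.012 without knockdown replicate 1.

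**Figure D3:**
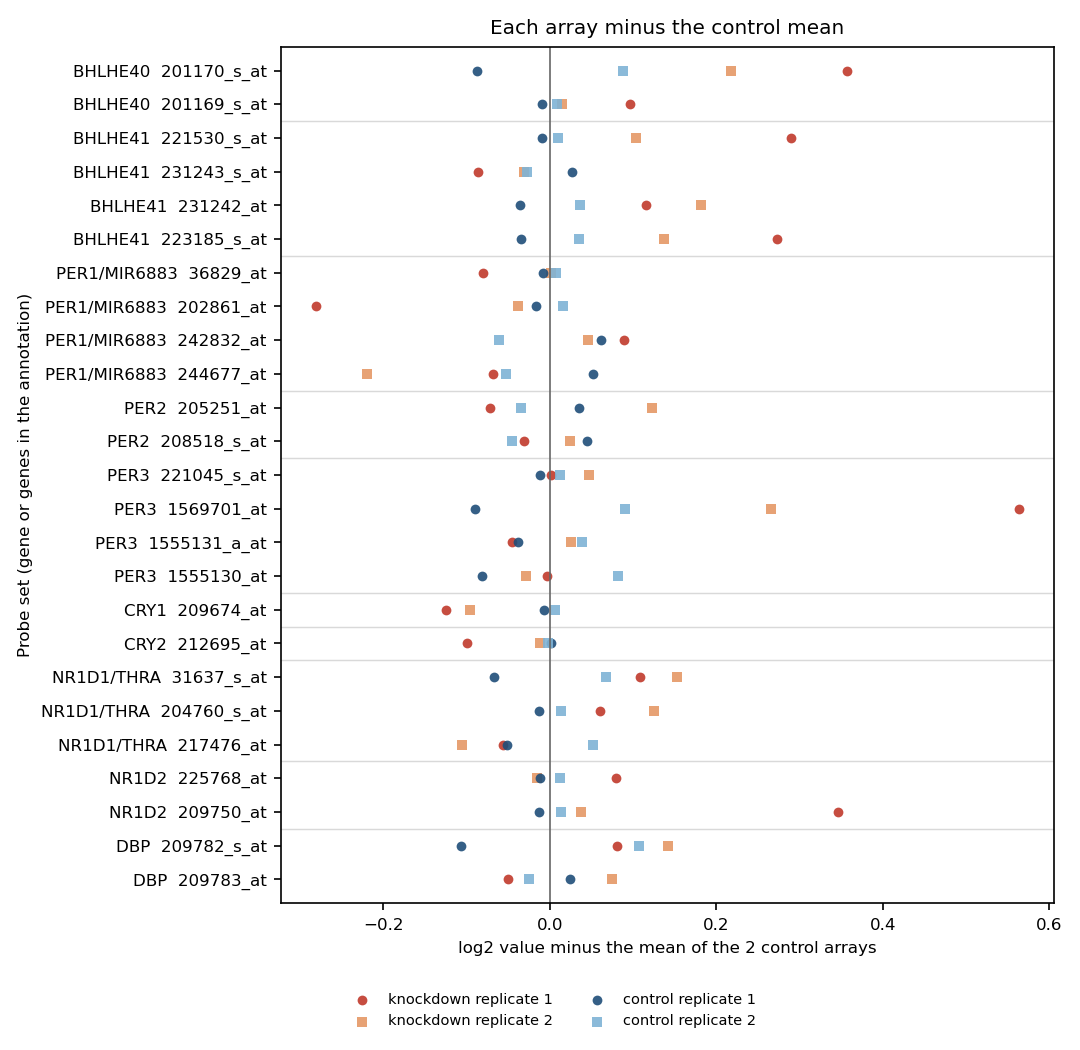
Each array's log2 value minus the mean of the 2 control arrays, for the 25 clock probe sets (knockdown arrays in reds, control arrays in blues). Knockdown replicate 1 is the outermost point for both BHLHE40 probe sets, for 3 of the 4 of BHLHE41, for PER3 1569701_at, for NR1D2 209750_at and for CRY1, where knockdown replicate 2 lies close to it and below the controls.

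NR1D2, a nuclear receptor that binds heme and represses BMAL1, was bright at both probe sets. At 209750_at it read 9.55 and 9.24 in knockdown and 9.19 and 9.22 in control cells, a difference of 0.19 ± 0.093 (SE; limma, adjusted p = 0.66). Knockdown replicate 1 alone carried it, since the difference was 0.037 without that array. At 225768_at, the brighter probe set, the values were 10.54 and 10.45 against 10.45 and 10.48, a difference of 0.032 ± 0.056 (SE) with overlapping groups.

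NR1D1, the closely related receptor, was represented only by probe sets shared with THRA, the thyroid hormone receptor gene. The brightest, 31637_s_at, read 8.38 and 8.42 in knockdown and 8.20 and 8.34 in control cells, a difference of 0.13 ± 0.062 (SE; limma, adjusted p = 0.65). Probe set 204760_s_at read 6.66 and 6.72 against 6.58 and 6.61, a difference of 0.092 ± 0.053 (SE). For these 2 both knockdown arrays were above both controls. The third, 217476_at, read 6.23 and 6.18 against 6.23 and 6.34, a difference of -0.081 ± 0.058 (SE), so the shared probe sets disagreed in sign.

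DBP, a leucine zipper factor driven by E-boxes and a classical output of the loop, did not separate the groups. At 209782_s_at it read 7.32 and 7.38 in knockdown and 7.13 and 7.35 in control cells, a difference of 0.11 ± 0.076 (SE). Control replicate 1 was the low array there, and without it the difference was 0.0045. At 209783_at the difference was 0.012 ± 0.061 (SE), and it was -0.00069 after a second quantile normalization and -0.0015 after subtraction of the array median.

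Agreement between probe sets of a gene was partial. Of the 8 genes with more than 1 probe set, counting the shared ones, all probe sets had the same sign for BHLHE40, NR1D2 and DBP, and signs were mixed for BHLHE41, PER1, PER2, PER3 and NR1D1. For comparison, 54.5% of 5015 genes with 2 single-gene probe sets and 278 of 1393 genes with 4 had a single sign throughout. With 1 value per gene, from the probe set with the highest mean, 6 of the 8 genes with single-gene probe sets were above control, beside 44.4% of 19775 genes, at a median of 0.029 beside -0.0094. That choice takes PER3 at 0.024 and so leaves out 1569701_at. The mean over all its probe sets was 0.10.

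The knockdown arrays contributed unequally at some probe sets. Over the 25, the median shift from the control mean was 0.0014 for knockdown replicate 1 and 0.037 for knockdown replicate 2. Knockdown replicate 1 was farther from the control mean than knockdown replicate 2 for 15 of the 25 probe sets, and 53.4% of all probe sets were so. For the 5 probe sets at an unadjusted p under 0.05 the difference without knockdown replicate 1 was 0.22 for BHLHE40, 0.10, 0.18 and 0.14 for BHLHE41 221530_s_at, 231242_at and 223185_s_at, and 0.27 for PER3 1569701_at. Without knockdown replicate 2, 5 clock probe sets passed an adjusted p of 0.05 (limma), beside 1.88% of all probe sets: PER3 1569701_at at 0.56 (adjusted p = 0.00020), NR1D2 209750_at at 0.35 (0.0093), BHLHE40 201170_s_at at 0.36 (0.014), BHLHE41 221530_s_at at 0.29 (0.033) and PER1/MIR6883 202861_at at -0.28 (0.041). That fit rests on knockdown replicate 1 alone and assumes that it varies like the control group. Over all 4 fits with 1 array left out the adjusted p of PER3 1569701_at ran from 0.00020 to 0.96, and that of BHLHE40 201170_s_at from 0.014 to 0.96.

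**Figure D4:**
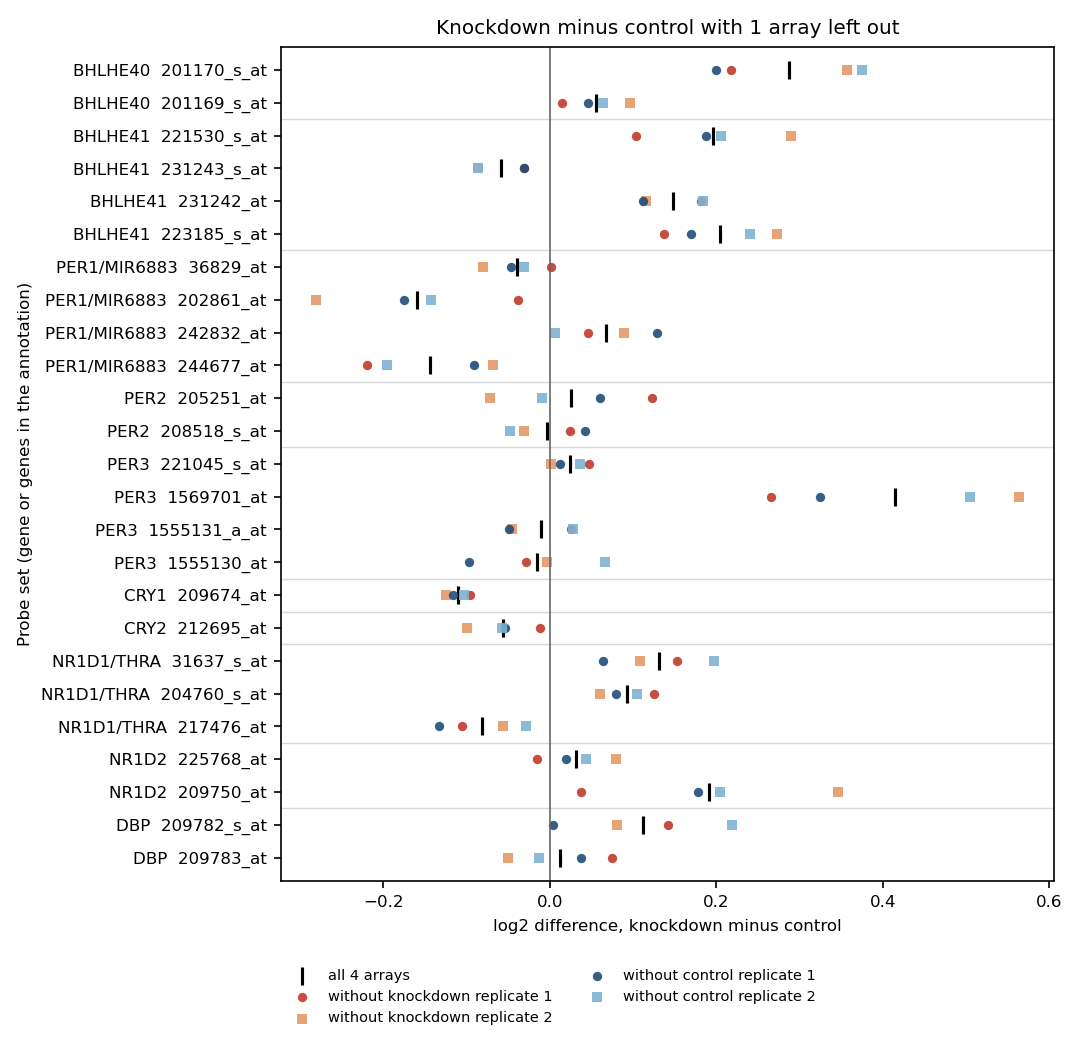
Knockdown minus control on the log2 scale with all 4 arrays (black ticks) and with each array left out (coloured points) for the 25 clock probe sets. The points for 18 probe sets keep their sign throughout, and PER3 1569701_at ranges from 0.27 to 0.56.

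Markers of mesenchymal or fibroblast cells, which such a line can hold as an alternative state, moved with the same array. Of 10 measured markers 9 were above control and 1 of them, COL3A1, was so at an unadjusted p under 0.05, beside 44.4% and 2.39% of all genes. Their mean log2 value was highest for knockdown replicate 1, at 9.88, against 9.57 for knockdown replicate 2 and 9.55 and 9.49 for the controls, with COL1A2 and PRRX1 below the array median. The sympathetic neuroblast list had 7 of 9 below control, and at an unadjusted p under 0.05 it had 3 lower, beside 5.57% of all genes, and 0 higher. These 3 were the granule protein genes CHGA, at -0.29 ± 0.063 (SE), and CHGB, at -0.20 ± 0.068 (SE), and the noradrenaline-synthesising enzyme gene DBH, at -0.35 ± 0.10 (SE). Of the 2 probe sets of DBH the other was above control, at 0.037, while CHGA and CHGB have 1 each. The part of either list in the BHLHE40, BHLHE41, PER3 and NR1D2 values was not tested. Without knockdown replicate 1 the median of the mesenchymal list was 0.058.

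The remaining genes of the loop, taken from lists drawn up for this comparison, had 0 members past an adjusted p of 0.05 (limma). Among the activators, BMAL1 read 8.99 and 8.81 in knockdown and 8.78 and 8.76 in control cells, a difference of 0.13 ± 0.069 (SE; limma, adjusted p = 0.68). Its partner CLOCK read 9.71 and 9.71 against 9.77 and 9.79, a difference of -0.069 ± 0.051 (SE). BMAL2 was at 0.087 ± 0.078 (SE), and NPAS2, which can replace CLOCK, was at -0.036 ± 0.056 (SE). At these probe sets, 1 for each of the 4 activators, 2 were above and 2 below control. At an unadjusted p under 0.05 there were 0, where 2.39% of genes were higher and 5.57% lower. Counting every probe set, 1 of 4 of CLOCK (at 0.12) and 3 of 5 of NPAS2 were above control. So were all 2 of BMAL1 and all 3 of BMAL2.

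The ROR receptors, which drive BMAL1 against NR1D1 and NR1D2, were described by RORA and RORB. RORA read 9.66 and 9.50 against 9.56 and 9.48, a difference of 0.059 ± 0.068 (SE), and RORB read 11.11 and 11.00 against 11.16 and 10.96, a difference of 0.00057 ± 0.076 (SE). The groups overlapped for both receptors.

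The D-box factors related to DBP, together with their competitor NFIL3, were all above control, with 1 of 3 at an unadjusted p under 0.05, beside 44.4% and 2.39% of all genes. HLF read 6.82 and 6.96 in knockdown and 6.58 and 6.77 in control cells, a difference of 0.22 ± 0.078 (SE; limma, adjusted p = 0.61). All 3 probe sets of HLF were at or above 0.0024, and the value given is the highest of them. TEF was at 0.11 ± 0.064 (SE), also its highest, and 3 of its 4 probe sets were above control. The repressor NFIL3 was at 0.058 ± 0.084 (SE), with overlapping groups.

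Modifiers of the clock proteins, that is kinases, ubiquitin ligase subunits and nuclear partners, were mostly below control. At 1 probe set per gene, 10 of 13 measured were below control and 3 above, beside 44.4% of all genes above control. At an unadjusted p under 0.05 there were 0, beside 2.39% of all genes higher and 5.57% lower. The median was -0.053, beside -0.0094 over all genes. After a second quantile normalization 9 of the 13 were below, and after subtraction of the array median 11 were. At least 1 other probe set lay above control for BTRC, CSNK1D, FBXW11, GSK3B and SFPQ, and none did for TIMELESS, CSNK1E and NONO. BTRC, a ubiquitin ligase subunit that binds phosphorylated PER proteins, had a difference of -0.12 ± 0.056 (SE; limma, adjusted p = 0.65), with 8.10 and 8.06 in control and 7.91 and 8.0 in knockdown cells. TIMELESS, better known from the replication fork, was at -0.11 ± 0.055 (SE), and the PER kinase CSNK1D at -0.11 ± 0.057 (SE).

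**Figure D5:**
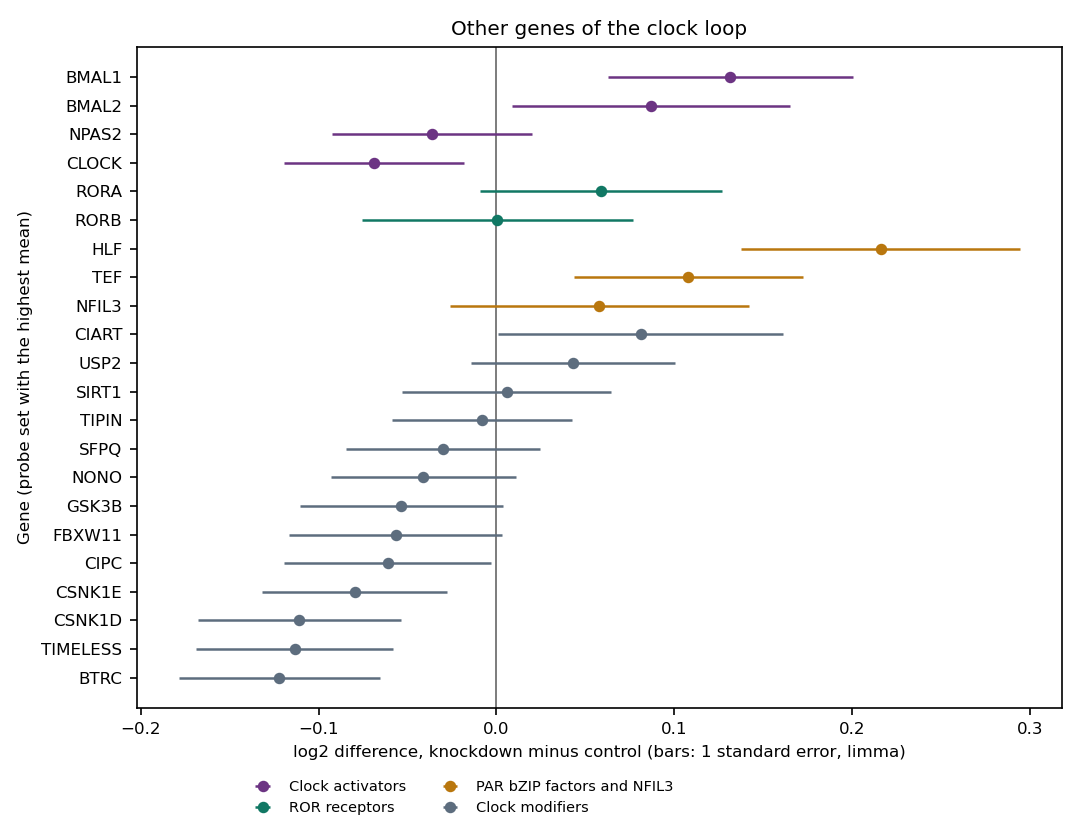
Knockdown minus control on the log2 scale (points) with 1 standard error from limma (bars) for the other genes of the loop, 1 probe set per gene, coloured by list. The 3 D-box factors lie above 0, 10 of 13 modifiers lie below 0 (9 and 11 under the 2 other scalings), and none passed after adjustment.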

How the data were processed

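Expression was measured on 4 arrays from SH-SY5Y cells, 2 knockdown and 2 control, from 100 ng of total RNA each. The values deposited are log2 and were made by the authors with RMA in R 3.0.1, per the submitters' processing notes, with settings not given in the sources used here. RMA equalises the arrays' distributions. Of 54675 probe sets, 62 AFFX controls were left out. The 2 groups were compared over the other 54613 with limma 3.58.1 in R 4.3.3 (lmFit, eBayes), with two-sided p-values and Benjamini-Hochberg adjustment at 0.05, and the code was tested on simulated data. The number of arrays limits the precision.

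Probe sets were named by the platform annotation. Of the 54613, 41091 had 1 gene, 11721 none and 1801 several. Among the first, 41037 matched a current RefSeq identifier. The clock genes, the lists and the alternatives were chosen with earlier results of these data known. The rule named every clock probe set, TSPAN8, all measured activators, ROR receptors and D-box factors, and for each other list its counts and the members with the smallest p. Alternatives were a signal filter, a second quantile normalization, median subtraction, the replicate number as a block, array weights, trended robust variance, a threshold of 0.10, other summaries per gene, and leaving out each array. Figures were drawn in Python 3.11.15 (matplotlib 3.10.9).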

Additional observations from a re-analysis of the deposited data

How the results depend on the processing

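Outside leave-one-out, only the second quantile normalization and the subtraction of the array median changed the differences themselves. Under the other settings a direction could not turn. Under these 2 scalings every clock probe set kept its direction except DBP 209783_at. It was at -0.00069 (second quantile normalization) and -0.0015 (array median subtracted). No clock probe set passed an adjusted p of 0.05 in any alternative outside leave-one-out, the lowest being 0.39 (limma). At a threshold of 0.10, 0 passed. The count at an unadjusted p under 0.05 was added after the values had been seen. The 5 higher became 3 among probe sets above the median signal, a filter that keeps 15 of the 25, and the 0 lower became 2 with the array median subtracted. With 1 array left out there were 2 to 7 higher and 0 to 1 lower, 0 to 5 past the adjusted threshold, and 1 to 1026 over the whole array. Directions turned within the leave-one-out range for 7 probe sets, from -0.080 to 0.0020 for PER1/MIR6883 36829_at, -0.072 to 0.12 and -0.048 to 0.042 for PER2 205251_at and 208518_s_at, -0.049 to 0.028 and -0.097 to 0.066 for PER3 1555131_a_at and 1555130_at, -0.016 to 0.079 for NR1D2 225768_at and -0.050 to 0.075 for DBP 209783_at. What caused these shifts was not tested.

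Deviations of equal replicate numbers correlated at 0.051 over all probe sets, and no label pairs them. With the replicate number as a block 0 probe sets passed in all, in a fit with fewer residual degrees of freedom, and 5 clock probe sets were higher and 1 lower at an unadjusted p under 0.05. Genes above control numbered 5 or 6 under each summary tried, of 7 genes where _x_at and _s_at probe sets were left out, since BHLHE40 has no other kind. Probe sets near background limit what can be read for BHLHE41. The signal of PER3 1569701_at in control cells, at percentile 50.4 of all probe sets, was not bright either.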

Other observations

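Pathways that feed into or out of the clock genes were measured beside them, from lists drawn up for this comparison, each with 0 members past an adjusted p of 0.05 (limma). Hypoxia targets, a class to which BHLHE40 also belongs, had 4 of 11 above control and 7 below, with 1 higher and 3 lower at an unadjusted p under 0.05, beside 44.4% of all genes above control, 2.39% higher and 5.57% lower. DDIT4, an inhibitor of mTOR signalling, read 11.69 and 11.83 in knockdown and 11.91 and 12.08 in control cells, a difference of -0.24 ± 0.075 (SE). ADM, which encodes the vasoactive peptide adrenomedullin, read 7.67 and 7.57 against 7.43 and 7.49, a difference of 0.16 ± 0.058 (SE). The list median was -0.027, and a link between this list and the BHLHE40 value was not tested.

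Glucocorticoid targets, a class to which PER1 also belongs, had 4 of 8 above control and a median of 0.0059 (6 of 8 after a second quantile normalization, and a median of -0.0078 after subtraction of the array median). SGK1, a kinase induced by glucocorticoids and by osmotic change, read 9.90 and 9.66 against 9.43 and 9.50, a difference of 0.31 ± 0.083 (SE; limma, adjusted p = 0.60). TSC22D3, also a direct glucocorticoid target, was at -0.16 ± 0.091 (SE) with overlapping groups. Of 11 immediate early genes, which serum induces together with PER1, 5 were above control and 6 below, with 0 at an unadjusted p under 0.05. IER2 was at -0.10 ± 0.054 (SE) and ATF3 at -0.23 ± 0.12 (SE), and FOS, FOSB, FOSL1, EGR3 and NR4A2 lay below the array median. Clock-controlled output genes had 6 of 11 above control and a median of 0.0017 (7 of 11 and 0.025 after a second quantile normalization, and 5 of 11 and -0.012 after subtraction of the array median), with MYC at -0.16 ± 0.074 (SE) and the cyclin gene CCND1 at 0.093 ± 0.057 (SE).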
